A study of Mus musculus with 44 samples.

Results

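Slc45a3, Slc44a1, Mreg and Pik3ap1 are the mouse genes whose promoters served as viewpoints (baits) for the chromatin contact arm of the study, and Slc45a3 carried a bait at each of 2 promoters. They were chosen by name, and here their RNA was followed in kidney. The 4 genes are 4 of 30284 with a transcript in the deposited kidney RNA table, and 13 of its 86119 annotated transcripts belong to them: 7 to Slc44a1, 4 to Slc45a3 and 1 each to Mreg and Pik3ap1. For Slc45a3, transcripts were also grouped by start site into a long form, which begins farthest upstream, and a short form, which begins 7642 bp farther into the gene. The chromatin contact libraries were not analysed here.

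Polyadenylated RNA was sequenced from kidneys of 129SV mice, aged 8 to 12 weeks after birth and fed only at night. The mice were wild type (WT) or lacked Bmal1 (KO), whose gene is Arntl and which encodes a core activator of the circadian clock. Sampling was every 4 h, at ZT (zeitgeber time, hours of the light cycle) 0, 4, 8, 12, 16 and 20. Each genotype had 2 libraries, A and B, at each time, which makes 12 groups and 24 libraries. How the knockout allele was made, and whether A and B came from different animals, is not given in the sources used here, so p-values measure the spread between these libraries, which may be technical. Values are TPM, which scale each transcript by its length and each library to the same total. TPM can therefore be compared between genes, but it keeps no sequencing depth, and the depth is unknown.

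SLC45 proteins are proton-coupled sugar transporters, and SLC45A3, also called prostein, is best known from the prostate. SLC44A1, or choline transporter-like protein 1, carries choline across the plasma and mitochondrial membranes, and choline feeds both phosphatidylcholine synthesis and the oxidation route to betaine, an osmolyte of the kidney. Melanoregulin (MREG) links pigment organelles and lysosomes to retrograde transport along microtubules. PIK3AP1, also called BCAP, is an adaptor that couples B cell and Toll-like receptors to phosphoinositide 3-kinase (PI3K) and is found mainly in leukocytes.

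The promoters are shown because the results turn on the pair of Slc45a3 starts and on Pik3ap1, the 1 member that was lower in KO. Each line gives the 250 bases before the RefSeq start (GRCm38.p6), 5′ to 3′ on the strand of the gene, and capitals mark the motif letters found. The long promoter lies at chr1:131962665-131962914 on the plus strand, the short promoter at chr1:131970359-131970608 on the plus strand, and the Pik3ap1 promoter at chr19:41385103-41385352 on the minus strand.
Slc45a3 long: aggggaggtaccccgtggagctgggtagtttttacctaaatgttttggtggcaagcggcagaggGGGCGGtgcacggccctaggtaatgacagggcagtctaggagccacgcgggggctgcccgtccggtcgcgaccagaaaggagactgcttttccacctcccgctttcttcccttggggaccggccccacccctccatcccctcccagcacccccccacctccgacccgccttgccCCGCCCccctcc
Slc45a3 short: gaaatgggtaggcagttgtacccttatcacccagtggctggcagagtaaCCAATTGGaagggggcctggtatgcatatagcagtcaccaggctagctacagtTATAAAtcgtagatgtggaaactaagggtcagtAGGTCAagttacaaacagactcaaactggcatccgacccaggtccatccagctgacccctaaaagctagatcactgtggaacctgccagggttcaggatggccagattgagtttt
Pik3ap1: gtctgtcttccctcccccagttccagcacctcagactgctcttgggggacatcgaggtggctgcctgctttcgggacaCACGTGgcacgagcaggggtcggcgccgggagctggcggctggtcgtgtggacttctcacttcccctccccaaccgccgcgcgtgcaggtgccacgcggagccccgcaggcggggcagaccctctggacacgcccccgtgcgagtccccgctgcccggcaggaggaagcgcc
The search covered 300 bases per promoter, 250 before and 50 after the start, on both strands. It looked for the E-box CACGTG, which the BMAL1 complex binds. A variant E-box, spelled CACGTT, was searched with it. The D-box was spelled TTATGTAA. For ROR receptors only a part of the binding element, AGGTCA, was searched, and it is called the ROR core here. Of the general promoter elements, the CCAAT box is its own spelling, the Sp1 box was spelled GGGCGG and the TATA box TATAAA. The Slc45a3 promoters differed in composition. The long one had 66.3% G+C and 17 CpG dinucleotides, with an Sp1 box on each strand, whereas the short one had 51.3% G+C and 2 CpG. The short promoter held a ROR core, a TATA box and an overlapping pair of CCAAT boxes, 1 on each strand. The TATA letters began at an offset of -148 from the start and the ROR core at -115, and whether either acts was not tested. Over 32851 promoters of the same length in the RefSeq table, the medians were 52.7% G+C and 7 CpG. Of these promoters, 16.3% held the ROR core, 13.6% the TATA box, 37.4% the CCAAT box and 35.7% the Sp1 box. Pik3ap1 was the 1 member with an E-box, which 7.15% of all promoters held, at an offset of -172 from its start. Neither Slc45a3 window held an E-box, the variant (4.68% of all promoters) or a D-box (0.938%). The windows of Slc44a1 (79.7% G+C, 43 CpG, Sp1 boxes) and Mreg (55.3% G+C, 20 CpG, a CCAAT box and an Sp1 box) held none of these 3 either. A match is only a description of the letters. The RefSeq and GENCODE starts were identical for the short form and 52 bp apart for the long form.

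As a check of the labels, Arntl ranged from 0.295 to 12.9 TPM over the 12 WT libraries and from 4.19 to 6.28 TPM over the 12 KO libraries, so its transcripts were still detected in KO. Where those reads lie relative to the deleted part is not given in the sources used here, so this level does not check the genotype. The clock target Nr1d1 was at 23.8 TPM in the library labelled KO ZT4 A, against a median of 2.04 TPM over the KO libraries, and Cry1 at 1.03 TPM against 13.6 TPM, so that library goes against its label and the genotype change of each member is also given without it. The median log2 change of the 12874 genes tested was 0.15 in favour of KO as deposited, and 0.0017 after median-of-ratios scaling of the libraries, which sets each library's median gene ratio to the same level. Of the genes called, 6555 were higher and 1289 lower in KO as deposited, against 2844 and 2856 after that scaling. Members are therefore read against that shift. Proximal tubule markers summed to between 1810 and 2511 TPM in every library, and liver markers to at most 181 TPM.

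In WT kidney the members fell into a pair of levels. Slc44a1 and Slc45a3 were at 13.3 ± 0.732 TPM and 10.1 ± 1.93 TPM (SD, n = 12 each), Mreg at 1.52 ± 0.397 TPM and Pik3ap1 at 0.565 ± 0.131 TPM. Slc45a3 was above Slc44a1 in 1 of 12 WT libraries and in 10 of 12 KO libraries, so the upper pair changed places between the genotypes. Mreg was above Pik3ap1 in all 12 libraries of each genotype. No member was listed at 0 in any library.

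**Figure D1:**
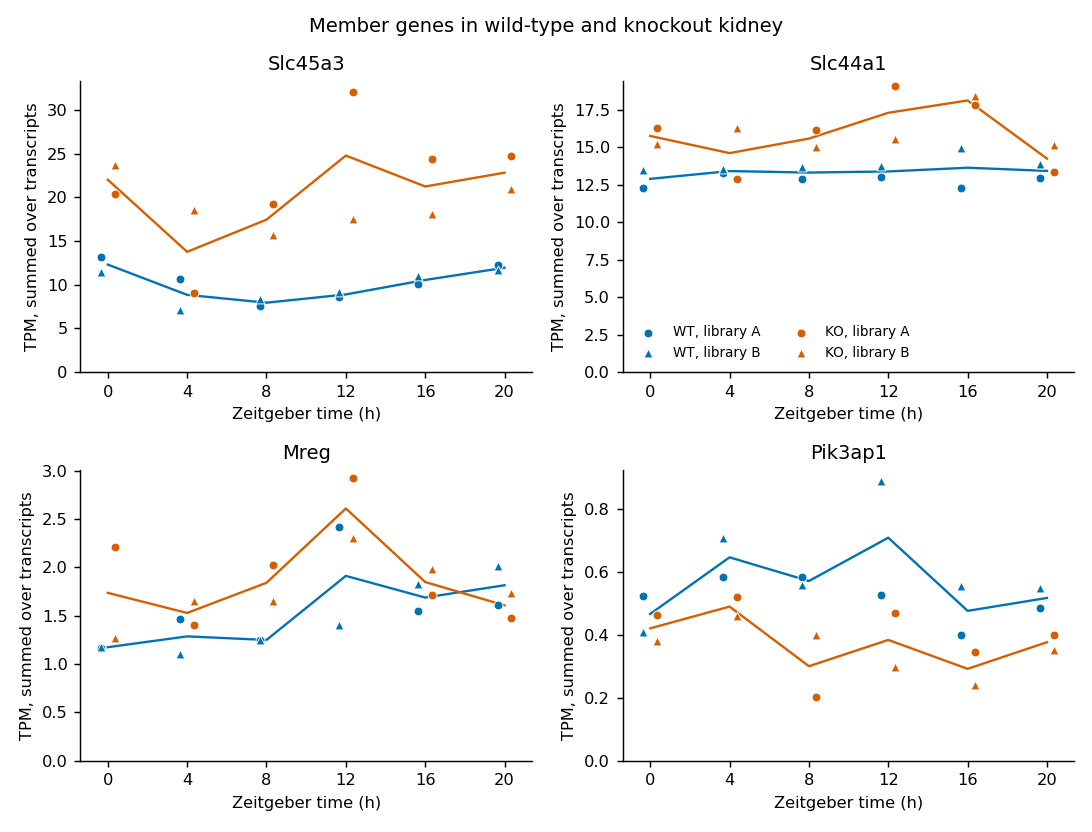
TPM of each gene, summed over its transcripts, against zeitgeber time in hours. Points are single libraries (circles A, triangles B), lines join the means of 2 libraries, blue is WT and orange is KO. KO lies above WT at 6 of 6 times for Slc45a3 and Slc44a1 and below WT at 6 of 6 times for Pik3ap1. In these deposited TPM, 76.2% of all genes tested had a change at or above 0.

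Slc45a3 showed the greatest change of the members between the genotypes. In WT its lowest, median and highest libraries were at 7.06, 10.3 and 13.1 TPM, and in KO at 9.0, 19.8 and 32.1 TPM. Of the 12 KO libraries, 11 lay above every WT library, and the exception was KO ZT4 A. This and later counts of separated libraries are of deposited TPM, and their share over all genes was not counted. The mean doubled, from 10.1 ± 1.93 to 20.3 ± 5.67 TPM (SD, n = 12), a ratio of 2.02. The log2 change was 0.97 (SE 0.12, adjusted p = 3.0e-06, limma) as deposited, 0.83 (adjusted p = 7.6e-06) with median-of-ratios scaling and 1.06 (adjusted p = 4.6e-08) without KO ZT4 A. Only 256 of the 12874 genes tested had a higher log2 change.

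The difference was present at each time of day. At ZT0 WT was at 13.1 and 11.5 TPM in libraries A and B, against 20.3 and 23.7 TPM in KO. At ZT12 the values were 8.58 and 9.19 TPM in WT, against 32.1 and 17.5 TPM in KO. The ratio of means ran from 1.56 at ZT4 to 2.79 at ZT12, and both KO libraries were above both WT libraries at 5 of 6 times. The KO pair at ZT12 was far apart, so the high mean there rested on library A.

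Of the 4 members, 3 reached the mean of 1 TPM asked of a gene in the fit, and Pik3ap1, with a mean of 0.472 TPM over all libraries, did not. All 3 were higher in KO with an adjusted p under 0.05, as were 50.9% of all genes tested, and 60.9% were called in either direction. Without KO ZT4 A, 52.7% of all genes were called as higher. After median-of-ratios scaling 1 of the 3, Slc45a3, was called, against 44.3% of all genes. In bulk tissue, a change in the number of cells of a type and a change in RNA per cell cannot be told apart.

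Slc45a3 (ENSMUSG00000026435, chromosome 1, 131962967 to 131982969, plus strand, GENCODE M21 on GRCm38) has 2 transcripts that carry the whole protein. The long form (ENSMUST00000177943) opens with a non-coding exon of 86 bases. The short form (ENSMUST00000027695) opens with a non-coding exon of 219 bases inside the first intron of the long one. Both then use the same 4 exons, with ends 5 bases apart, and the same coding sequence of 1659 bases, so the annotated protein is identical. They share 3121 exonic bases, and 91 bases of the long and 219 bases of the short form are in no other listed transcript of the gene, so the split of reads between them rests on those bases. A second annotated gene, Gm29103, starts at an offset of -13 bp from the long form, on the same strand. It shares 481 exonic bases with Slc45a3 and has no row in the table. Reads from Gm29103 may therefore be counted in Slc45a3, the long form included. How many of the 91 bases it covers, and its effect on the split, were not tested.

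**Figure D2:**
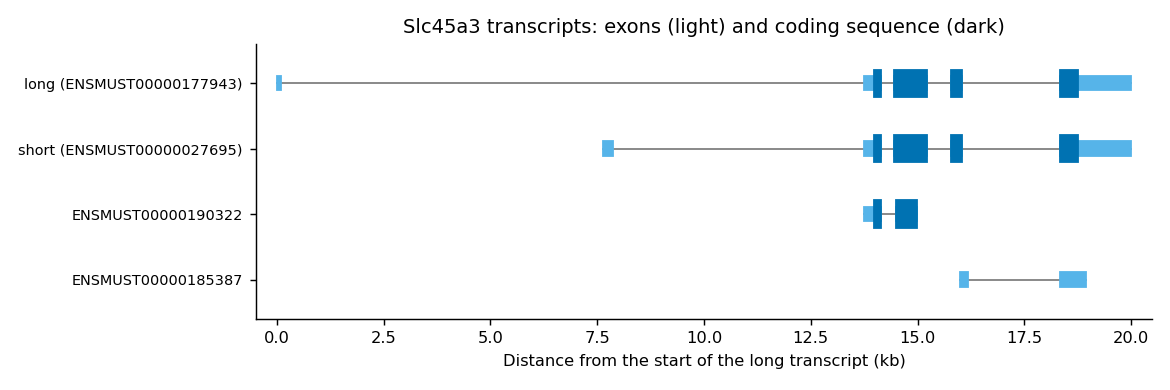
The 4 listed Slc45a3 transcripts, drawn to scale by distance in kb from the start of the long form. Boxes are exons (light) and coding sequence (dark), and the long and short forms differ in the first exon and share the 4 that follow.

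Both forms were higher in KO, and the fitted log2 change was larger for the short form. The long form was at 4.41, 7.25 and 9.83 TPM (lowest, median, highest) in WT and at 5.99, 11.4 and 23.8 TPM in KO. The short form was at 1.48, 2.10 and 4.15 TPM in WT and at 2.46, 6.53 and 9.0 TPM in KO. For the long form 8 of 12 KO libraries lay above every WT library, and both KO libraries lay above both WT libraries at 6 of 6 times. For the short form 11 of 12 KO libraries lay above every WT library, and KO ZT4 A was again the exception.

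Means rose from 7.0 ± 1.79 to 12.2 ± 5.02 TPM for the long form and from 2.29 ± 0.779 to 6.41 ± 1.78 TPM for the short form (SD, n = 12). The log2 change was 0.74 (SE 0.16, adjusted p = 0.0016, limma over 31003 promoter groups) for the long form. It was 1.44 (SE 0.19, adjusted p = 1.4e-05, same fit) for the short form. Both were called as higher, as were 29.4% of all promoter groups, with 35.6% called in either direction and 31.1% called as higher without KO ZT4 A. With median-of-ratios scaling the log2 changes were 0.58 (adjusted p = 0.0077) and 1.29 (adjusted p = 6.2e-05), where 11.4% of all promoter groups were called as higher. Without KO ZT4 A they were 0.80 and 1.56. Only 238 promoter groups had a higher change than the short form, against 1637 for the long form.

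The mean share of the short form in the pair was higher in KO, but this difference did not pass the threshold after adjustment. The short share of long plus short TPM was 14.4%, 22.3% and 43.5% (lowest, median, highest) in WT and 16.1%, 35.5% and 53.9% in KO, so the genotypes overlapped widely. The mean share was 25.2% ± 9.13 in WT and 35.7% ± 10.8 in KO (SD, n = 12), 10.5 percentage points higher, and KO was higher at 5 of 6 times. An exact permutation test of the genotype labels within times gave p = 0.0247 (two-sided), or 0.0742 adjusted over the 3 tests made on the share. Without KO ZT4 A the difference was 10.6 points (adjusted p = 0.10). With each of the 24 libraries left out in turn, only 3 of 24 tests passed, and the adjusted p rose to as much as 0.259. The 3 were those without WT ZT4 A (0.0138), without KO ZT12 A (0.0154) and without KO ZT16 A (0.0355). Among 6089 genes with at least 2 promoter groups, limma on the log2 ratio of the leading pair called 1.43%. There the Slc45a3 change in short over long was 0.70 (SE 0.28, adjusted p = 0.275), above that of 96.7% of those genes.

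Single libraries set much of the spread in the share. In KO ZT12 the long form was at 23.8 TPM in library A and 8.48 TPM in library B, while the short form was at 4.56 and 7.20 TPM. The share was therefore 16.1% in A and 45.9% in B, the lowest of all KO libraries beside one of the highest. At ZT16 the KO libraries were similarly split, at 24% and 53.9%. In WT ZT4 the short form was at 4.15 TPM in library A and 1.48 TPM in library B, while the long form was at 5.39 and 5.44 TPM. Over the 12 libraries of a genotype, the long and short forms showed no detectable relation (WT Pearson r = -0.33 and Spearman rho = -0.17, KO r = -0.19 and rho = -0.31, permutation p between 0.304 and 0.588, adjusted p between 0.534 and 0.588 over 4 relations). Without the 2 libraries farthest from the median of the long form, r was -0.29 in WT and 0.24 in KO.

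**Figure D3:**
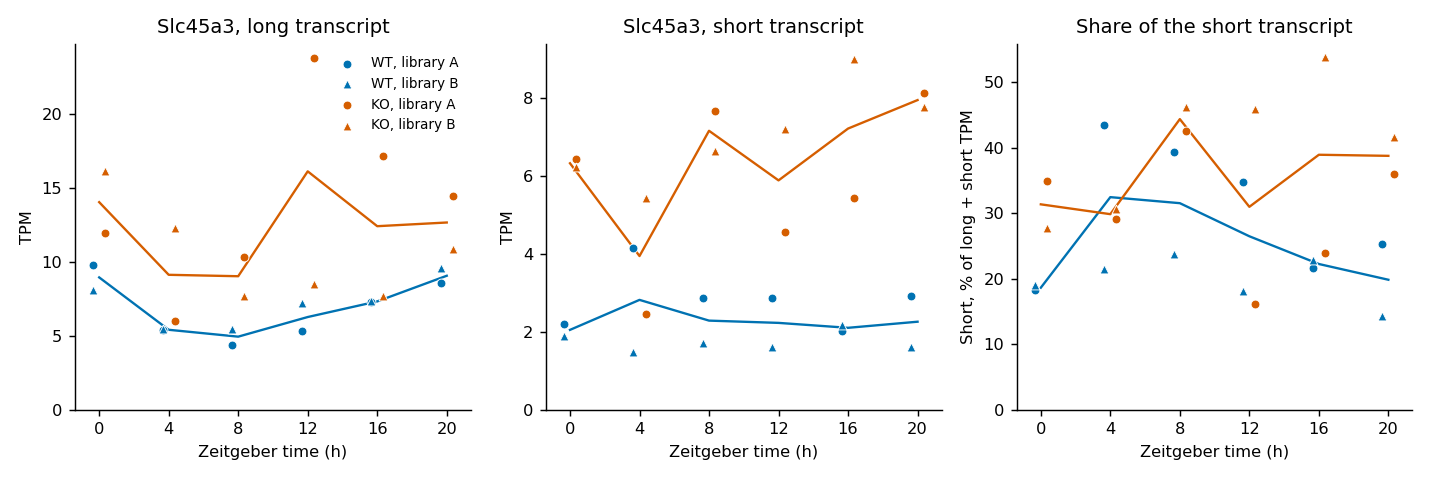
TPM of the long and short Slc45a3 forms and the share of the short form in percent of both, against zeitgeber time in hours. Points are single libraries (circles A, triangles B), lines join the means of 2, blue is WT and orange is KO. The short form separates the genotypes except at ZT4, whereas the shares overlap, from 14.4% to 43.5% in WT and from 16.1% to 53.9% in KO.

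The remaining Slc45a3 transcripts were minor. ENSMUST00000185387, a processed transcript over the last exons, was at 0.627 ± 0.399 TPM in WT and 1.28 ± 0.656 TPM in KO (SD, n = 12), with a log2 change of 1.0 (SE 0.25, adjusted p = 0.0062, limma over 49593 transcripts). ENSMUST00000190322, a truncated coding form, was listed at 0 in 4 WT and 2 KO libraries and reached at most 1.05 TPM, with a log2 change of 0.95 (SE 0.44, adjusted p = 0.134). Its adjusted p was 0.0517 without KO ZT4 A. All 4 Slc45a3 transcripts had higher means in KO, and 3 of the 4 passed the test as higher, against 19.3% of all transcripts. These 4 share exons and kallisto divides reads among them, so they are not independent results. ENSMUST00000190322 has 0 bases that no other listed transcript of the gene holds.

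In WT the Slc45a3 time means ran from 7.94 TPM at ZT8 to 12.3 TPM at ZT0, and the long form from 4.95 TPM at ZT8 to 9.07 TPM at ZT20. The short form stayed between 2.05 and 2.82 TPM, and at ZT4, ZT8, ZT12 and ZT20 its libraries A and B differed by more than these means did. A 24-hour curve fitted to WT had 0.65 log2 units (SE 0.25) between peak and trough, with the peak at ZT20.6. In the order of the WT means, the libraries of ZT0 and ZT20, of ZT12 and ZT4, and of ZT4 and ZT8 overlapped, whereas ZT20 lay above ZT16 and ZT16 above ZT12 in both libraries.

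That rhythm did not pass the threshold when both genotypes shared 1 estimate of the spread (adjusted p = 0.173, limma). It passed with each genotype fitted alone (adjusted p = 0.0126, with 22.1% of genes called) and without KO ZT4 A (adjusted p = 0.0497, with 16.6% called). The long form followed the same course, with a WT difference of 0.89 log2 units (SE 0.34) and a peak at ZT20.2 (adjusted p = 0.260, and 0.0119 fitted alone, with 7.03% of promoter groups called). In KO the fitted difference of the gene was also 0.65 (SE 0.25, adjusted p = 0.234), with a peak at ZT16.95, and it was 0.32 without KO ZT4 A. The test of the difference between the genotypes gave an adjusted p of 0.620.

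No member gene passed a rhythm test by limma in the fit of all libraries. Of the 3 genes tested, 0 passed in WT, where 13.7% of all genes did, 0 in KO, where 3.64% did, and 0 for the difference between genotypes, where 0.629% did. At an unadjusted p under 0.05 the counts were 1, 1 and 0. For the pair of Slc45a3 promoter groups the counts were 0, 0 and 0, against 5.16%, 1.01% and 0.181% of all groups, and at an unadjusted p under 0.05 they were 1, 0 and 0. Permutation tests of the short share gave adjusted p-values of 0.287 in WT and 0.869 in KO.

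Slc44a1 (ENSMUSG00000028412, chromosome 4, 53440413 to 53622478, plus strand), the choline transporter, was slightly higher in KO. Its lowest, median and highest libraries were at 12.3, 13.4 and 14.9 TPM in WT and at 12.9, 15.8 and 19.1 TPM in KO. Of the 12 KO libraries 10 lay above every WT library, although the step was small. These TPM are as deposited, where 76.2% of all genes tested had a change at or above 0. Means were 13.3 ± 0.732 and 15.9 ± 1.86 TPM (SD, n = 12), with a log2 change of 0.25 (SE 0.05, adjusted p = 0.000451, limma). With median-of-ratios scaling the change was 0.10 and no longer passed (adjusted p = 0.0501), without KO ZT4 A it was 0.27 (adjusted p = 6.5e-05), and 69.2% of all genes tested had a lower change as deposited.

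Of the 4 members, Slc44a1 had the smallest fitted difference between peak and trough in WT. Its time means stayed between 12.9 and 13.6 TPM, and that difference was 0.04 log2 units (SE 0.10, adjusted p = 0.954, limma). In KO the means ran from 14.2 TPM at ZT20 to 18.1 TPM at ZT16, with a fitted difference of 0.26 (SE 0.10, adjusted p = 0.252). The test of the difference between genotypes gave an adjusted p of 0.681.

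Of the 7 listed Slc44a1 transcripts, 2 held nearly all of the signal. ENSMUST00000107651, called the major form here, and ENSMUST00000102911, called the minor form, begin 258 bp apart, share 1947 coding bases and end differently, with 21 and 12 coding bases of their own. The major form held 79.1% ± 3.63 of Slc44a1 TPM in WT and 76.8% ± 3.16 in KO (SD, n = 12), and the minor form 17.5% ± 2.63 and 19.7% ± 2.41. The other 5 had means of at most 0.255 TPM, each was listed at 0 in at least 2 libraries, and 2 of them were tested and did not pass (ENSMUST00000136607 and ENSMUST00000133582, adjusted p = 0.731 and 0.750, limma).

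The minor form had the larger fitted change between the genotypes. It was at 1.79, 2.28 and 2.88 TPM (lowest, median, highest) in WT and at 2.02, 3.11 and 4.49 TPM in KO, and 8 of 12 KO libraries lay above every WT library. The log2 change of the minor form was 0.40 (SE 0.09, adjusted p = 0.0023, limma), and 0.25 (adjusted p = 0.0428) with median-of-ratios scaling. The major form was at 9.58, 10.4 and 11.4 TPM in WT and at 10.4, 12.2 and 14.4 TPM in KO. For the major form it was 0.20 (SE 0.05, adjusted p = 0.0067), and 0.04 (adjusted p = 0.534) with that scaling. Without KO ZT4 A the changes were 0.45 for the minor and 0.23 for the major form. The difference between these 2 changes was not tested.

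The minor form had WT means that varied between times, but no rhythm that passed the threshold. Its WT means rose from 1.83 TPM at ZT0 to 2.83 TPM at ZT12 and were back at 2.04 TPM at ZT20, with SDs between 0.0207 and 0.439 TPM (n = 2). The fitted difference was 0.56 log2 units (SE 0.18) with a peak at ZT11.5 (adjusted p = 0.203, limma), and its share of Slc44a1 TPM ran from 14.3% at ZT0 to 21.2% at ZT12. The major form was lowest in WT at ZT12, at 10.1 TPM, and highest at ZT20, at 11.1 TPM. Over the 12 KO libraries the pair varied together (Pearson r = 0.79, permutation p = 0.0029, adjusted p = 0.0117; Spearman rho = 0.69, adjusted p = 0.0657), and r was 0.55 without the 2 libraries farthest from the median of the major form. Over the 12 WT libraries r was -0.25 (permutation p = 0.428, adjusted p = 0.534) and rho -0.22 (adjusted p = 0.588).

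**Figure D4:**
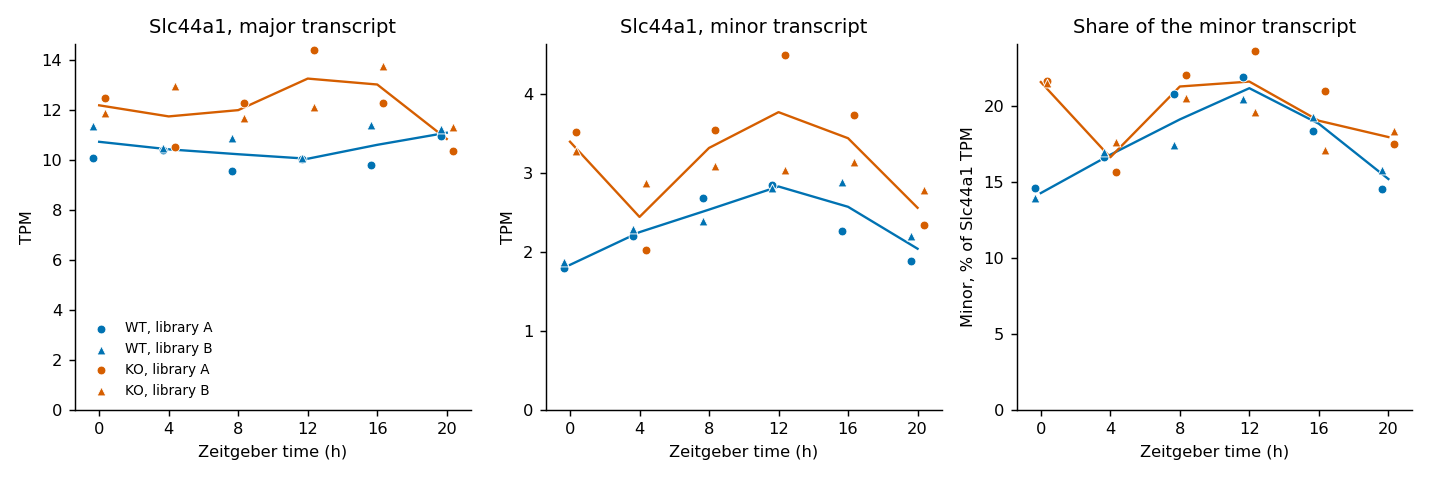
TPM of the major and minor Slc44a1 transcripts and the share of the minor one in percent of all Slc44a1 TPM, against zeitgeber time in hours. Points are single libraries (circles A, triangles B), lines join the means of 2, blue is WT and orange is KO. In WT the means of the minor form run from 1.83 TPM at ZT0 to 2.83 TPM at ZT12, without a rhythm past the threshold. Those of the major form stay between 10.1 and 11.1 TPM.

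Over all members, 10 of the 13 transcripts reached the mean of 0.1 TPM asked of a transcript. Of these, 6 passed the genotype test, 5 of them as higher in KO, against 23.6% of all transcripts called, 19.3% as higher and 4.33% as lower. Transcripts of the same gene share exons and reads, so these counts are not of independent results. After median-of-ratios scaling 5 passed, 4 of them as higher, against 15.4% of all transcripts called and 7.09% called as higher. For rhythm 0 of 10 passed in WT, in KO or for the difference (2.89%, 0.381% and 0.107% of all transcripts, limma), and at an unadjusted p under 0.05 the counts were 3, 0 and 1.

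Mreg (ENSMUSG00000039395, chromosome 1, 72159442 to 72212307, minus strand) differed little between the genotypes. Its lowest, median and highest libraries were at 1.11, 1.44 and 2.42 TPM in WT and at 1.26, 1.72 and 2.92 TPM in KO. Only 1 KO library lay above every WT library, and KO had the higher mean at 5 of 6 times. Means were 1.52 ± 0.397 and 1.86 ± 0.458 TPM (SD, n = 12), with a log2 change of 0.28 (SE 0.11, adjusted p = 0.0319, limma over genes). Without KO ZT4 A it was 0.29 (adjusted p = 0.0299).

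That call was not stable. It was lost with median-of-ratios scaling (0.14, adjusted p = 0.293) and when any 1 of 10 libraries was left out (WT ZT0 A, ZT0 B, ZT4 B, ZT8 A, ZT8 B and ZT12 B, and KO ZT0 A, ZT4 B, ZT8 A and ZT12 A, with adjusted p between 0.0504 and 0.0646). The same values, tested as a promoter group among 31003, gave an adjusted p of 0.0566. In WT the time means ran from 1.17 TPM at ZT0 to 1.91 TPM at ZT12, where the libraries were at 2.42 and 1.40 TPM. The fitted difference was 0.62 log2 units (SE 0.21, peak ZT15.6, adjusted p = 0.120) in WT and 0.55 (SE 0.21, peak ZT12.3, adjusted p = 0.253) in KO. Melanocyte markers (Pmel, Tyr, Dct, Mlana) all had means under 1 TPM, and their sum was between 0.243 and 0.553 TPM in WT and between 0.362 and 0.706 TPM in KO.

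Pik3ap1 (ENSMUSG00000025017, chromosome 19, 41272377 to 41385102, minus strand), the PI3K adaptor, was the 1 member that was lower in KO. Its lowest, median and highest libraries were at 0.399, 0.552 and 0.892 TPM in WT and at 0.202, 0.390 and 0.521 TPM in KO. Of the 12 KO libraries 6 lay below every WT library, and both KO libraries lay below both WT libraries at 5 of 6 times, ZT0 being the exception. Means were 0.565 ± 0.131 and 0.378 ± 0.0963 TPM (SD, n = 12).

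Because it was under the 1 TPM limit, Pik3ap1 was tested on its own, a choice made after its level was seen. On the log2(TPM + 0.1) scale, which understates the change of so low a gene, the change was -0.48, with KO lower at 6 of 6 times. An exact permutation test within times gave p = 0.000129 (two-sided), or 0.000386 adjusted over the 3 tests of this gene. In limma fits that included it, the adjusted p was 0.0019 among 24733 genes with no filter and 0.0039 among 31003 promoter groups, where 6.23% were called as lower. With median-of-ratios scaling the change was -0.61 (adjusted p = 0.000782, with 12.6% of promoter groups called as lower), and without KO ZT4 A it was -0.50. Its time means were highest at ZT12 in WT (0.710 TPM) and at ZT4 in KO (0.491 TPM), and neither genotype passed the rhythm test (permutation, adjusted p = 0.287 in each).

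Several leukocyte markers were lower in KO, as Pik3ap1 was. Of 11 markers 6 reached 1 TPM, and 4 of these were lower in KO (limma) while none was higher, against 10.0% and 50.9% of all genes, with a median log2 change of -0.35 against 0.15 for all genes. Ptprc (-0.14, adjusted p = 0.289) and Lyz2 (-0.09, adjusted p = 0.715) did not pass. With median-of-ratios scaling 5 were lower. The 4 included Csf1r, the receptor of macrophage growth factors (13.5 ± 1.36 to 10.8 ± 1.58 TPM, SD, n = 12, log2 change -0.33), and C1qa, a complement subunit made by macrophages (14.1 ± 3.09 to 10.4 ± 1.88 TPM, log2 change -0.44). The sum of the list was 161 to 327 TPM in WT (median 202) and 122 to 209 TPM in KO (median 168), and the B and T cell markers Cd79a, Cd79b, Ms4a1 and Cd3e had means under 1 TPM. The part of these cells in the Pik3ap1 result was not tested.

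Among markers of kidney segments, all 3 collecting duct markers, both distal convoluted tubule markers and both podocyte markers were higher in KO, against 50.9% of all genes, with median log2 changes of 0.49, 0.39 and 0.54, and after median-of-ratios scaling 1 of the distal convoluted tubule markers, Pvalb, no longer passed (0.20). Of the 5 proximal tubule markers 2 were higher (1 higher and 1 lower after that scaling), of the 3 endothelial markers 1, both below that share, and of the 2 thick ascending limb markers 1 was higher and 1 lower. Of the 4 liver markers tested 1 was higher and 1 lower. The collecting duct sum was 140 to 253 TPM in WT and 183 to 448 TPM in KO. The lowest KO value was that of KO ZT4 A, which goes against its label by Nr1d1 and Cry1. Among the members, that library was the lowest in KO for Slc45a3 and Slc44a1 (12.9 TPM) and the highest in KO for Pik3ap1 (0.521 TPM). KO ZT4 A was also the lowest in KO for the distal convoluted tubule (174 TPM), liver (99.0 TPM) and melanocyte (0.362 TPM) sums. It was not the lowest for Mreg or for the proximal tubule, thick ascending limb, podocyte, endothelial or leukocyte sums. The part of the kidney segments in the Slc45a3 result was not tested.

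**Figure D5:**
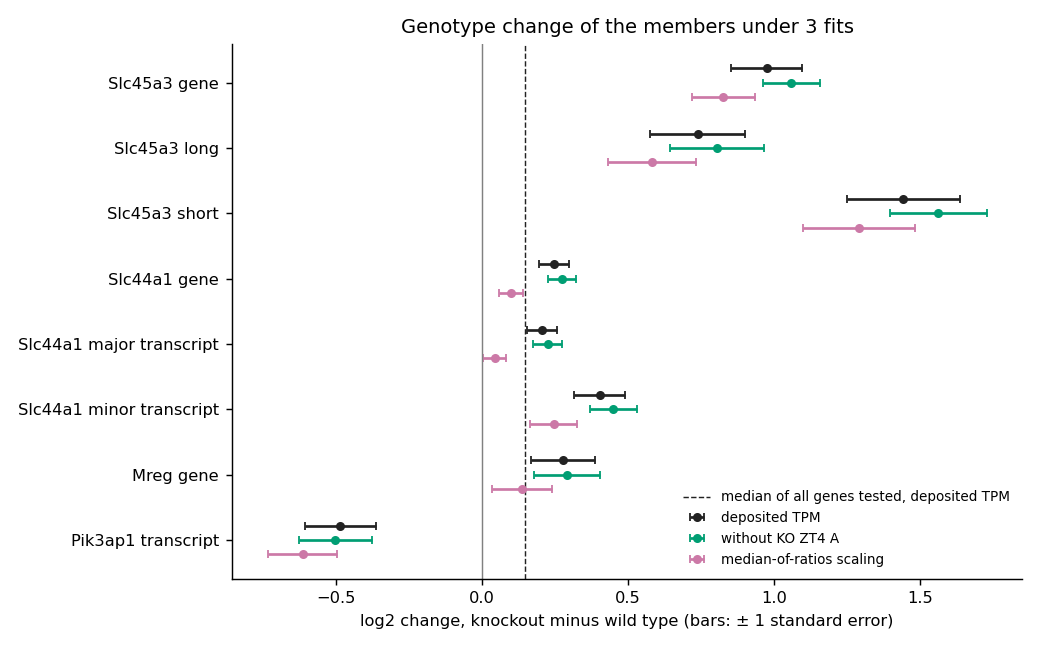
Log2 change from WT to KO of the member genes and main transcripts, with bars of ± 1 standard error, for the deposited TPM, without KO ZT4 A and with median-of-ratios scaling. The dashed line is the median of all genes tested in the deposited TPM (0.15), and with median-of-ratios scaling that median was 0.0017. Slc45a3 and both of its forms lie right of the line under all 3 fits, Slc44a1 and Mreg lie near it, and Pik3ap1 lies left of 0.

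The family and pathway of each member were described by lists. Of the SLC45 family only Slc45a4 was tested beside Slc45a3. It rose from 10.1 ± 0.731 to 12.8 ± 1.83 TPM (SD, n = 12), a log2 change of 0.33 (SE 0.07, adjusted p = 0.000362, limma) and of 0.18 (adjusted p = 0.0342) with median-of-ratios scaling. Slc45a1 and Slc45a2 had means under 1 TPM. The median change of the 2 tested family members was 0.65, against 0.15 for all genes. It includes Slc45a3 itself, so it does not describe the relatives. Of all genes tested, 50.9% were called as higher.

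The choline list moved in both directions. Of 22 tested genes other than Slc44a1, 12 were higher and 7 lower in KO, against 50.9% and 10.0% of all genes. The counts were 9 and 7 after median-of-ratios scaling, and 13 and 7 without KO ZT4 A. The median of the 23 tested genes, Slc44a1 included, was 0.22, against 0.15 for all genes. Bhmt, which uses betaine to remethylate homocysteine, rose from 1.46 ± 0.463 to 57.4 ± 22.4 TPM (SD, n = 12), a log2 change of 4.94 (SE 0.44, adjusted p = 3.8e-07, limma). The choline transporter-like gene Slc44a3 rose by 0.82 and the ethanolamine kinase gene Etnk1 by 0.76 on the log2 scale. Of the nearest relatives of Slc44a1, Slc44a2 was also higher (0.34), Slc44a4 was lower (-0.20) and Slc44a5 was under 1 TPM. In WT 4 of the 22 were rhythmic, near the 13.7% of all genes, and 5 without KO ZT4 A. In KO 0 were (limma, with 1 after median-of-ratios scaling), against 3.64% of all genes, and Slc44a1 was not among them.

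For Mreg, the list held genes of organelle transport. Of 13 tested genes other than Mreg, 8 were higher and 2 lower as deposited (50.9% and 10.0% of all genes), but 1 was higher and 6 were lower after median-of-ratios scaling, so the direction of the list depended on the scaling. The median of the 14 tested genes, Mreg included, was 0.11, against 0.15 for all genes. Myo5a, the myosin motor that carries melanosomes, fell from 23.8 ± 5.08 to 12.1 ± 4.32 TPM (SD, n = 12), a log2 change of -1.02 (SE 0.16, adjusted p = 3.8e-05, limma). Rab27a, the GTPase that recruits that motor, rose from 6.14 ± 1.14 to 9.49 ± 1.86 TPM, a log2 change of 0.62. Its paralog Rab27b had a change of 0.38 as deposited and of 0.24 (adjusted p = 0.0969) after that scaling.

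For Pik3ap1, 8 of the 20 genes of the PI3K list had means under 1 TPM, among them Pik3ap1 itself, the B cell kinase gene Btk and the leukocyte catalytic subunits Pik3cd and Pik3cg. Of the 12 tested, 4 were higher and 1 lower as deposited (50.9% and 10.0% of all genes), and 1 was higher and 3 were lower after median-of-ratios scaling, with a median of 0.07 against 0.15 for all genes. The regulatory subunit gene Pik3r3 rose from 3.41 ± 0.537 to 4.66 ± 0.984 TPM (SD, n = 12), a log2 change of 0.43 (SE 0.08, adjusted p = 0.000169, limma) and of 0.28 after that scaling. The kinase gene Akt1 and the adaptor gene Blnk had changes of 0.21 and 0.17 as deposited, and of 0.06 (adjusted p = 0.179) and 0.02 (adjusted p = 0.759) after it.

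Neighbouring genes were taken within 100 kb of each start. Within 100 kb of the Slc45a3 start, 3 genes were tested. Elk4, at an offset of 44640 bp, had a log2 change of 0.19 (adjusted p = 0.0115, limma), Nucks1, at -52433 bp, of 0.13 (adjusted p = 0.0123), and Rab29, at -95743 bp, of 0.01 (adjusted p = 0.897). With median-of-ratios scaling Elk4 and Nucks1 no longer passed (0.05 and -0.02), and Rab29 was lower (-0.14, adjusted p = 0.0211). All 3 changes were smaller than that of Slc45a3, as were those of 98% of all genes tested. As deposited, 50.9% of all genes were called as higher.

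Near Mreg, Pecr and Tmem169 start 72007 and 72062 bp away, and both were lower in KO. Pecr, a peroxisomal reductase gene, fell from 305 ± 27.0 to 170 ± 64.2 TPM (SD, n = 12), a log2 change of -0.94 (adjusted p = 1.6e-05, limma). Tmem169 fell from 6.34 ± 2.14 to 3.56 ± 1.18 TPM, a log2 change of -0.81 (adjusted p = 2.3e-05), and was rhythmic in WT (adjusted p = 0.0247). Xrcc5, 95114 bp away, had a change of 0.13 (adjusted p = 0.0033), and of -0.02 with median-of-ratios scaling (adjusted p = 0.757). Of all genes tested, 50.9% were called as higher, 10.0% as lower and 13.7% as rhythmic in WT. Near Pik3ap1 only Lcor was tested, 97535 bp away, with a change of 0.03 (adjusted p = 0.846), and near Slc44a1 no gene was.

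The genes most like each member were ranked by Pearson correlation of the 12 group means of log2(TPM + 0.1), as a description, since all values come from the same libraries. For Slc45a3 they were Spag5, a mitotic spindle gene (r = 0.99), Slc2a1, the glucose transporter GLUT1 (r = 0.99), and Efhd1 (r = 0.99). For Slc44a1 they were Hnrnph3 (r = 0.98), the desmosome gene Dsp (r = 0.97) and Asrgl1 (r = 0.97). For Mreg they were Prkd1 (r = 0.97), Sult1a1 (r = 0.92) and Lrrc31 (r = 0.91). For Pik3ap1 they were Mpeg1, a macrophage gene (r = 0.94), Styk1 (r = 0.92) and Cd53, a leukocyte tetraspanin (r = 0.91). Slc2a1 was at 17.3 TPM in WT and 31.6 TPM in KO, and Mpeg1 at 4.56 and 3.15 TPM.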

How the data were processed

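Polyadenylated kidney RNA was measured in 24 libraries, grouped by the labels alone. The authors deposited TPM per transcript, made with kallisto 0.42.4 on mm10/GRCm38, per the submitters' processing notes, and the index is not given in the sources used here. kallisto divides reads among transcripts that share sequence. TPM were summed to genes through GENCODE M21: 86119 of 88198 transcripts matched, and the other 2079 (1.35% to 2.24% of TPM) were left out. Promoter groups joined transcripts of a gene with starts within 500 bp.

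Values were tested as log2(TPM + 0.1) with limma 3.58.1 in R 4.3.3 (trend and robust eBayes) over all features with a mean of at least 1 TPM (genes) or 0.1 TPM (promoter groups, transcripts), with Benjamini-Hochberg adjustment and a threshold of 0.05. Genotype was fitted with time as a 6-level factor, and rhythm by F tests of a 24-hour cosine and sine per genotype. Shares and Pik3ap1 were tested by permutation (exact, or 100000 draws for rhythm; scipy 1.17.1). The limma fits were tested on simulated data. Alternatives covered pseudocount, filter, scaling, eBayes options, time term, spread per genotype, start-site distance, replicate letter and each library left out. Neither counts nor depth could be recovered from TPM.

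Members, gene lists, marker lists and motifs were chosen with earlier results of these data known. Named genes are the members and their transcripts, the 3 genes most correlated with each, tested genes within 100 kb, and up to 3 called genes per list with the greatest change. The relatives of Slc44a1, the markers Csf1r, C1qa, Ptprc, Lyz2 and Pvalb, and the untested list genes were named after their values were seen. For 1 gene of these lists, which their counts include, no value is reported here. Promoters came from the RefSeq table of GRCm38.p6, which held all 4 genes.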

Additional observations from a re-analysis of the deposited data

How the results depend on the processing

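The genotype changes of Slc45a3, its long and short forms and Pik3ap1 kept their direction and stayed past the threshold under every alternative run. The Slc44a1 change lost its call with median-of-ratios scaling (0.10), and the Mreg change with that scaling (0.14) and with no time term (0.28, adjusted p = 0.0685). Fitting each genotype alone brought the WT rhythm of Slc45a3 (0.65) and of its long form (0.89) past the threshold. The cause of these changes was not tested. With 1 library left out, values ran from 0.22 to 0.32 for the Mreg genotype change, from 0.59 to 0.68 for the Slc45a3 rhythm in WT, and from 8.02 to 13.0 percentage points for the short share. The difference in peak-to-trough between genotypes, never past the threshold, ran from -0.32 to 0.19 for Slc45a3 and from -0.24 to 0.17 for Mreg, so its sign rested on single libraries. Of 200 other comparisons of an alternative with its result, 194 kept direction and side of the threshold.

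The letters A and B did not pair the libraries: at the same time, the A minus B deviations of WT and KO correlated across genes between -0.089 and 0.15. With the letter as a replicate block, the changes were 0.97 (Slc45a3), 0.25 (Slc44a1) and 0.28 (Mreg), the short share difference had an adjusted p of 0.138, and 7873 genes were called by genotype against 7844. No member's call changed under this block. A filter of 5 TPM left no value for Mreg. Since depth is unknown, the counting error behind Pik3ap1 and the short form could not be given, and the split of Slc45a3 rests on 91 and 219 bases.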
